A study of Mus musculus with 16 samples.

Results

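Bach2, Bahcc1, Gse1, Wwox, Rgs3 and Rnd3 are 6 genes around which many binding sites of the transcription factor RUNX2 went missing from the peak list when mouse osteoblasts differentiated. They were chosen on those very counts, for a net fall of 7 or more RUNX2 peaks or for 9 lost peaks, with each peak given to the gene whose transcription start site (TSS) was nearest, within 100 kb. The set searched held 22239 genes, the protein-coding ones and Cebpd. Of these, 6072 had an undifferentiated RUNX2 peak, and 18 of the 6072 (0.296%) met the rule. The other 12 that met it were 4930558K02Rik, Ankrd1, Cald1, Chd2, Cnksr3, Lif, Ltbp1, Rara, Slc6a6, Ttc7, Veph1 and the mitochondrial gene mt-Nd1. Around the 6 genes lay 71 of the 12674 undifferentiated and 22 of the 6272 differentiated RUNX2 peaks.

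The cells were MC3T3-E1, a mouse pre-osteoblast line, at passages 5 to 12, and both states received ethanol vehicle for 3 h before chromatin was prepared. Undifferentiated cultures were compared with cultures differentiated for 15 days, in which ascorbic acid (50 µg/mL) and glycerol-2-phosphate (10 mM) were added and the mineralised matrix was removed before use. Chromatin immunoprecipitation and sequencing was done for RUNX2, for the leucine zipper factor C/EBPβ and for 5 histone marks. Biological replicates had been merged, which left 1 peak list per antibody (of 7) and state, so no difference between states has a replicate check and no test was possible. The state of the differentiated H3K36me3 sample was taken from its title, because its treatment label is garbled. H4K5Ac is the name on the antibody label, where the protocol reads H3K5Ac. The 2 input samples were not analysed here, and the differentiated one is labelled as given 100 nM 1,25(OH)2D3.

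RUNX2 binds DNA through its runt domain together with the partner CBFβ, and it is required for osteoblasts to form. Its core sites read TGTGGT or TGCGGT. Of the marks, H4K5Ac and H3K9Ac are acetylations found at active regulatory DNA, H3K4me3 is typical of active promoters, H3K4me1 of enhancers, and H3K36me3 is laid down over gene bodies during transcription. Among the 6 genes, Bach2 encodes a BTB and leucine zipper repressor best known in lymphocytes, Bahcc1 a chromatin protein with a BAH domain, and Gse1 a coiled-coil subunit of CoREST-type histone deacetylase complexes. Rgs3 encodes a GTPase activator that shortens G protein signalling, and Rnd3 an atypical small GTPase that inhibits the kinase ROCK1. Wwox encodes an oxidoreductase with WW domains and is a very long gene that spans a common fragile site.

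The sequences below show what the peaks looked like at each gene. For each gene they give the lost and the kept site nearest to a TSS among those with a RUNX motif outside annotated untranslated regions. They are from mm9, plus strand, 5′ to 3′, and each is a whole 201 bp peak. Capitals mark TGTGGT or TGCGGT, or their reverse complements ACCACA and ACCGCA. Bach2 site 1 was added after its values were seen, because it holds 9 matches to TGTGGT in a run of CA repeats.
Bach2 site 5, lost, chr4:32327047-32327247: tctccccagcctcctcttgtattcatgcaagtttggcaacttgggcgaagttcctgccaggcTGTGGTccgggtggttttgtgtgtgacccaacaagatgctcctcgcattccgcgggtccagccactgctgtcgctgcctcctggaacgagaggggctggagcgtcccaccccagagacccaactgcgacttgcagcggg
Bach2 site 7, kept, chr4:32338009-32338209: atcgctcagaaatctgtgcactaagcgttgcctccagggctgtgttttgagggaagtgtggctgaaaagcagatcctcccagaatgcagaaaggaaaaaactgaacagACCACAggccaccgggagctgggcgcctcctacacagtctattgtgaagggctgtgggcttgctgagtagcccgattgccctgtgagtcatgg
Bach2 site 1, lost, chr4:32266493-32266693: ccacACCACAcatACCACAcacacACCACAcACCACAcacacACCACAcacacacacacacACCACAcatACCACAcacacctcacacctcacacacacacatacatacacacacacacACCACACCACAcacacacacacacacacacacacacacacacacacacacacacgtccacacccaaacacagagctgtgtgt
Bahcc1 site 1, lost, chr11:120070842-120071042: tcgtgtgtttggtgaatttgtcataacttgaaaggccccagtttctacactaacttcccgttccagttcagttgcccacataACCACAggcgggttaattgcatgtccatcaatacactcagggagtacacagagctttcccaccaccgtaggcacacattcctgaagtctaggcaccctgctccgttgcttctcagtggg
Bahcc1 site 4, kept, chr11:120092917-120093117: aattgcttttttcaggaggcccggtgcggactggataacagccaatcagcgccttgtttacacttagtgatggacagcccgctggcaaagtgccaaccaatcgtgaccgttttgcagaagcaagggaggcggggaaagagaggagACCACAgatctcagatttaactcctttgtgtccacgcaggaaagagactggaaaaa
Gse1 site 8, lost, chr8:123060197-123060397: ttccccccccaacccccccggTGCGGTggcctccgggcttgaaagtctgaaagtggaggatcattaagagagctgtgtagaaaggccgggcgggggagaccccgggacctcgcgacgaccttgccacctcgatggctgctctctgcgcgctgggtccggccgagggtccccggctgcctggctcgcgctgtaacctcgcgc
Gse1 site 9, kept, chr8:123060551-123060751: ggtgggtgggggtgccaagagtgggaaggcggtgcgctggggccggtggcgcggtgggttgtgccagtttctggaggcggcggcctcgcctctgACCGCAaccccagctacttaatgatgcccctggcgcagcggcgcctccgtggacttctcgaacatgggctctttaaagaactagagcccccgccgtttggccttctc
Wwox site 10, lost, chr8:117246364-117246564: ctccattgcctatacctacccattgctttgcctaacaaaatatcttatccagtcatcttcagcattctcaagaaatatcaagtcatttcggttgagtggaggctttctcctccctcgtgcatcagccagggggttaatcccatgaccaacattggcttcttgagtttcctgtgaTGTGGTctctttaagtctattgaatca
Wwox site 9, kept, chr8:117218587-117218787: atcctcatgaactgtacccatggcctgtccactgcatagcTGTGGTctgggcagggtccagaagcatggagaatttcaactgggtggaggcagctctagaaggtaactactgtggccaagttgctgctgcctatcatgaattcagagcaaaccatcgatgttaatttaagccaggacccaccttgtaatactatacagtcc
Rgs3 site 3, lost, chr4:62393261-62393461: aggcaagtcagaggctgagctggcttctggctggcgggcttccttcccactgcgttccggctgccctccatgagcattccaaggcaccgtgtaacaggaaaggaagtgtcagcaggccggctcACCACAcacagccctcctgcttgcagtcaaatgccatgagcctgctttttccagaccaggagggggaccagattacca
Rgs3 site 5, kept, chr4:62397615-62397815: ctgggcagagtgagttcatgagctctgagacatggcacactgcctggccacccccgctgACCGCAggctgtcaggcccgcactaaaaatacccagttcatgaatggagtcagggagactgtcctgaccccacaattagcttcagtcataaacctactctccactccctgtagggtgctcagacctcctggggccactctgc
Rnd3 site 6, lost, chr2:51002325-51002525: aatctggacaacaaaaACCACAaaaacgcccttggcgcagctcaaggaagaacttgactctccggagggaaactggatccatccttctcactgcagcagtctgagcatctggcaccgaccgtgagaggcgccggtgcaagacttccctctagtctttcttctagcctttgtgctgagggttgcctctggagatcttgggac
Rnd3 site 10, kept, chr2:51075357-51075557: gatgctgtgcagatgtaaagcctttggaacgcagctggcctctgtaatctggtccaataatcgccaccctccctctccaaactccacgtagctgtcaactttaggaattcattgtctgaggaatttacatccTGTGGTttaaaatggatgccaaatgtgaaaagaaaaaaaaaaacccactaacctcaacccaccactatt

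All 12 of these chosen sites hold a motif by construction, so the pairs compare layout only, and the counts over all sites are given with the motifs further on. At Gse1 the lost site 8 and the kept site 9 each held 1 TGCGGT match, and their centres were 354 bp apart. At Rgs3 the lost site 3 held TGTGGT and the kept site 5 held TGCGGT. Bach2 site 1, with its 9 matches, was lost, while its neighbour Bach2 site 2, centred 429 bp away, held no match to either motif and was kept. Of all 12674 undifferentiated RUNX2 peaks, 11 held 9 or more TGTGGT matches.

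Across the 6 genes, 52 undifferentiated RUNX2 sites were lost (no differentiated peak overlapped them by 1 bp), 19 were kept, and 3 differentiated peaks were gained. The lost share was 73.2%, with 63.6% over all undifferentiated RUNX2 peaks beside it, and nothing is read from this since the rule used it. Bach2 went from 16 to 7 peaks, with 9 lost and 7 kept, so it had the most kept sites. Bahcc1 and Gse1 each went from 12 to 4 peaks, with 9 lost, 3 kept and 1 gained. Wwox went from 12 to 3 peaks, with 9 lost and 3 kept. Rgs3 went from 10 to 2 peaks, with 8 lost and 2 kept, and Rnd3 from 9 to 2, with 8 lost, 1 kept and 1 gained. All 6 counts fell, by 7 at Rnd3 and by 9 at Bach2 and Wwox.

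**Figure D1:**
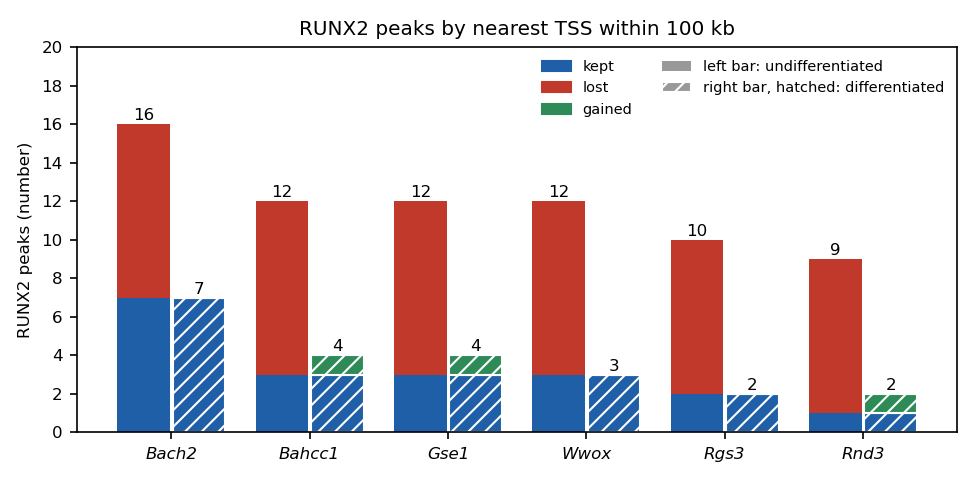
Number of RUNX2 peaks (vertical axis) at each of the 6 genes, with undifferentiated cells in the left bar and differentiated cells in the right, hatched bar, split into kept, lost and gained peaks; there are no error bars because each state is 1 merged list. Every left bar is mostly lost peaks, and Bach2 has the largest kept part, with 7 peaks.

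Just inside the threshold, the net fall was 7 at Rnd3 and, among the genes outside the 6, at Ankrd1 (8 to 1 peaks), Chd2 (10 to 3), Cnksr3 (11 to 4), Lif (9 to 2), Ttc7 (8 to 1), Veph1 (9 to 2), 4930558K02Rik (12 to 5) and mt-Nd1 (7 to 0). Just outside it were 14 genes with a net fall of 6, the first of them by name being Amotl2 (9 to 3), Crispld2 (8 to 2), Dlc1 (11 to 5), Fto (7 to 1) and Gm10655 (8 to 2). Likeness in the numbers of kept, lost and gained peaks was measured to genes outside the 6 only. Nearest to Bach2 among these were Ltbp1, at a Euclidean distance of 2.24 peaks, and Mylk, at 2.45. Bahcc1 and Gse1 had the same numbers as each other. Outside the 6, the nearest to both were Cald1 and 4930558K02Rik, each 1 peak away. Again outside the 6, Wwox was nearest to Rara (1) and Cald1 (1.41). Rgs3 was nearest to Veph1 and Lif (1 each), and Rnd3 to Slc6a6 (1) and Ankrd1 (1.41). This likeness rests on 3 numbers per gene from 2 lists.

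The sites were laid out differently at each gene. Of the 52 lost sites, 28 were intronic, 21 intergenic and 3 exonic, and of the 19 kept sites 13 were intronic and 6 intergenic. Only 7 of the lost sites (13.5%) lay within 1 kb of a TSS, against 29.4% of the 8006 lost sites elsewhere, a difference of -15.9 percentage points with a Newcombe 95% interval of -22.8 to -4.04. Intervals here cover counting error alone, and sites of 1 gene are not replicates. Many of these genes are crowded with sites, so a second comparison set was made after the first shares were seen: the 241 lost sites of the 43 other genes with 9 or more undifferentiated RUNX2 peaks. There 10.8% of lost sites lay within 1 kb of a TSS, and the difference from the 6 genes was 2.67 points (-5.50 to 14.9).

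**Figure D2:**
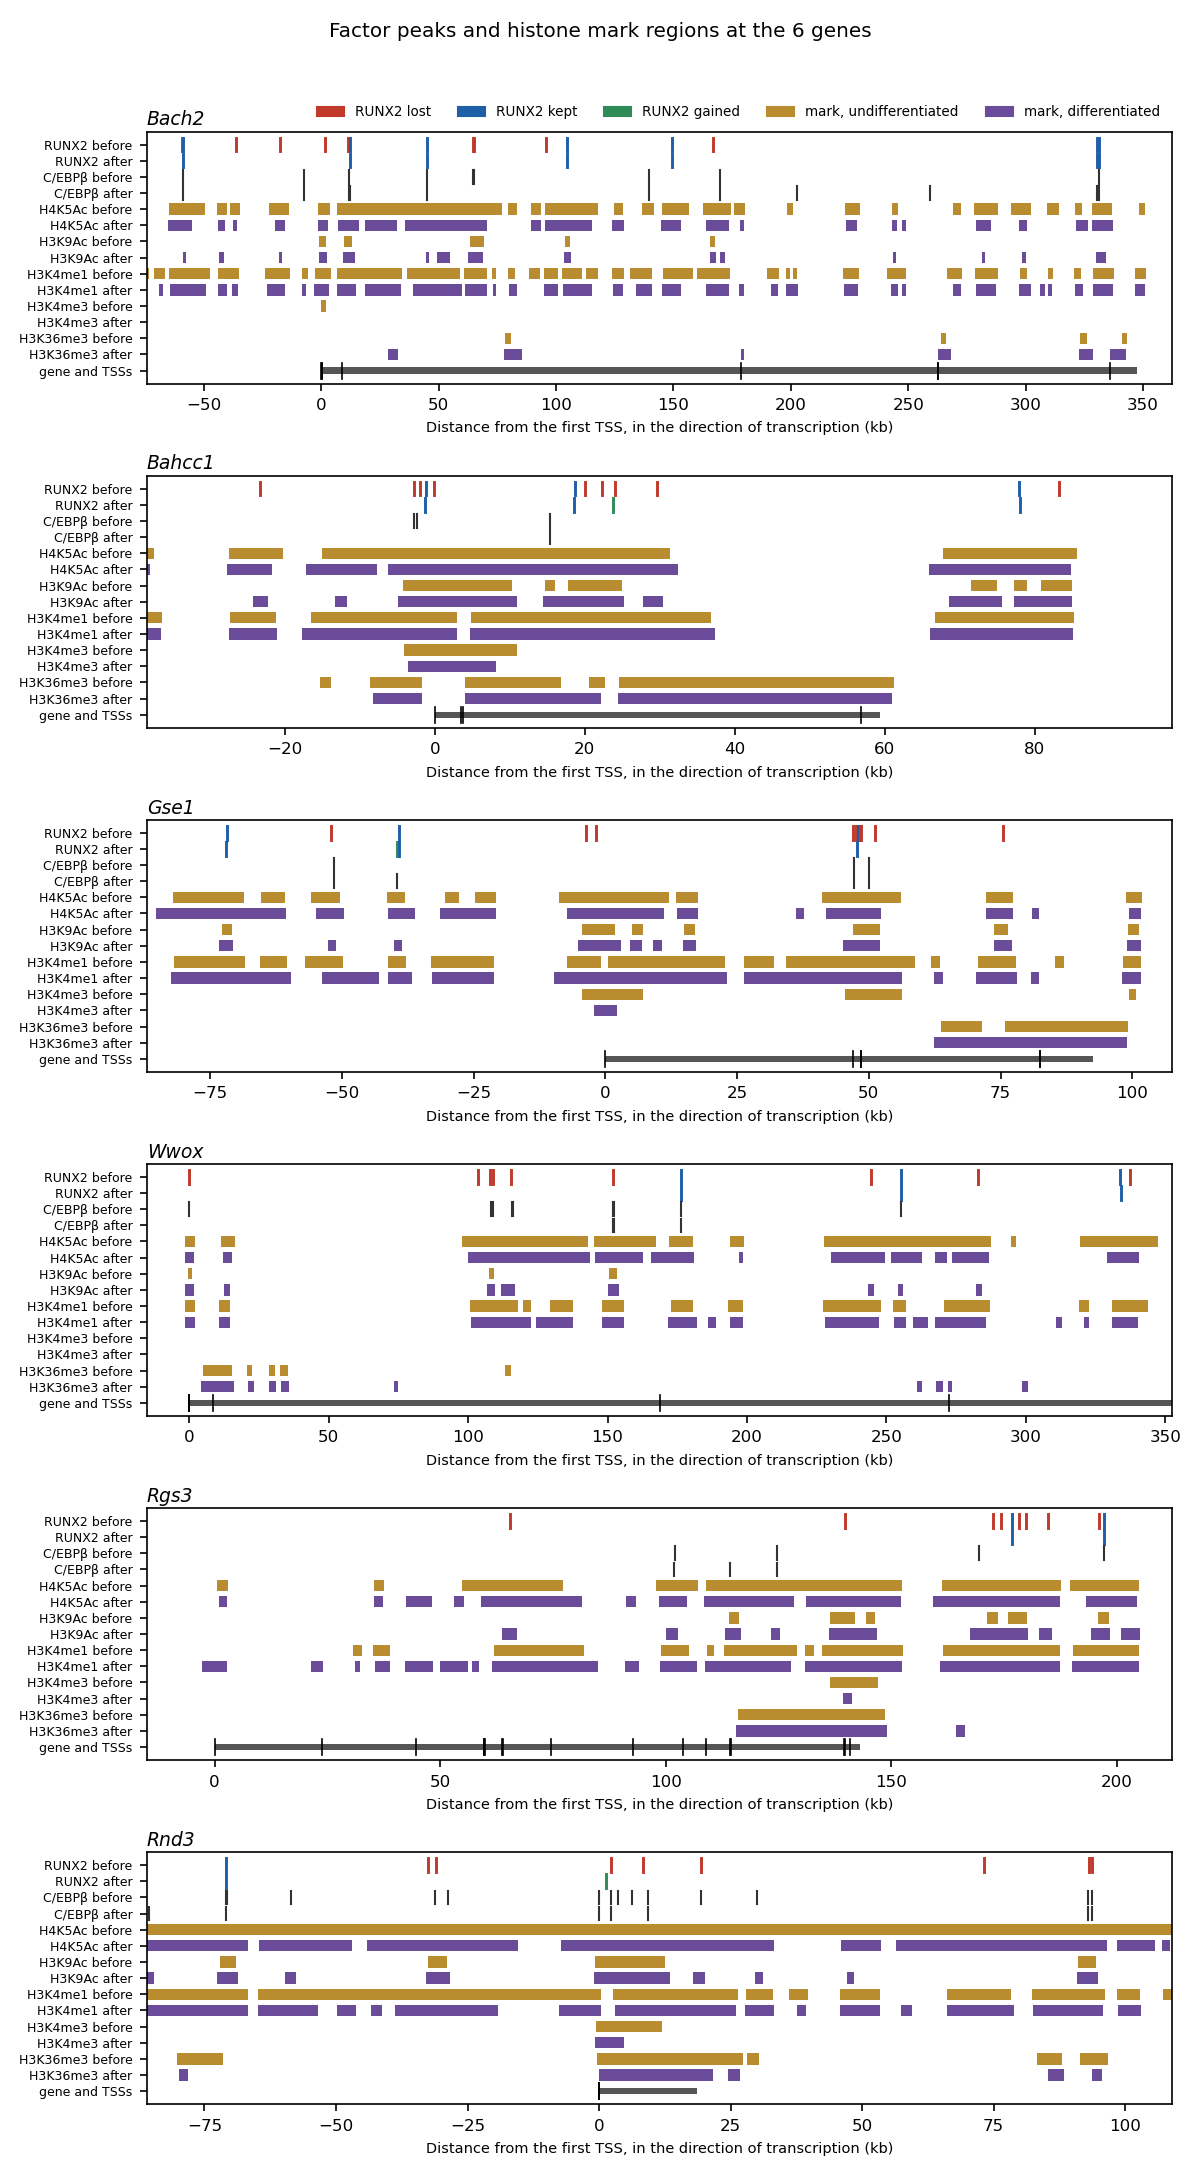
Factor peaks (ticks) and mark regions (bars) at each gene against distance from the first TSS in kb, in the direction of transcription, with undifferentiated (before) and differentiated (after) lists on neighbouring rows, the gene body in grey and every TSS as a black tick; only RUNX2 peaks given to the gene are drawn, and the far end of Wwox is not shown. The 6 clustered lost sites of Rgs3 lie beyond the gene, and most lost sites of Gse1 crowd its internal TSSs. Those of Wwox, apart from the promoter site, are spread through introns.

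At Bach2 (chr4:32325779-32673083, plus strand, 347 kb), the 16 undifferentiated sites spanned 391 kb, 4 of them upstream of the gene and 12 in its introns. Kept and lost sites were interspersed along the gene. Both sites near the 3′ end of the gene, sites 15 and 16, were kept. Bach2 site 1 was lost 344 bp from a differentiated peak centre, and Bach2 site 6 was lost 821 bp from one. The TSS of D130062J21Rik lies inside Bach2, and the nearest genes outside are Map3k7 (1 RUNX2 peak before, 0 after) and Gja10 (0 in both).

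At Bahcc1 (chr11:120094261-120153610, plus strand, 59.4 kb), 4 of the 12 sites crowded the promoter, at -2.83, -2.00, -1.24 and -0.154 kb from the first TSS. Of these the site at -1.24 kb was kept and the other 3 were lost. The gained Bahcc1 site 9 lay 222 bp from the lost Bahcc1 site 10, both intronic. The flanking genes Slc38a10 and Actg1 had no RUNX2 peak in either state.

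At Gse1 (chr8:123012766-123105290, plus strand, 92.5 kb), sites 7 to 12 lay 47.0 to 51.1 kb into the gene, over its internal TSSs, and 5 of these 6 were lost. Only the kept Gse1 site 9 remained there. The lost sites 7, 8, 10 and 11 were centred 764, 275, 437 and 768 bp from a differentiated RUNX2 peak centre. They count as lost because no differentiated peak overlapped them. Sites upstream of Gse1 lie in introns of the overlapping gene Gm20388, and the gained Gse1 site 3 was 394 bp from the kept Gse1 site 4. The neighbour Fam92b went from 8 to 3 RUNX2 peaks, with 5 lost. Gins2, on the other side, had none in either state.

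At Wwox (chr8:116963555-117876608, plus strand, 913 kb), 11 of the 12 sites were intronic and 1 lay at the promoter, centred 50 bp upstream of the first TSS. The promoter site was lost. The 9 lost sites were on median 61.0 kb from the nearest differentiated RUNX2 peak, the longest such median of the 6 genes. Counting by the gene body alone gave Wwox 15 peaks before and 3 after. The next gene, Maf, whose TSS is 995 kb from the nearest TSS of Wwox, went from 4 to 2 peaks, and Clec3a had none.

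At Rgs3 (chr4:62220881-62364052, plus strand, 143 kb), 6 of the 8 lost sites and both kept sites were intergenic, 31.6 to 56.3 kb beyond its last TSS. Only Rgs3 site 1, intronic, and Rgs3 site 2, exonic and 90 bp from an internal TSS, lay in the gene, and both were lost. By the gene body alone Rgs3 had 2 peaks before and 0 after, so its place in the rule comes from the downstream cluster. Zfp618, the next gene on that side, went from 2 peaks to 1, and 4933430I17Rik had none.

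At Rnd3 (chr2:50985958-51004631, minus strand, 18.7 kb), the sites reached up to 93.8 kb from the TSSs and 2 of the 9 undifferentiated sites were inside the gene. The single kept site, Rnd3 site 10, was intergenic at 70.8 kb upstream. The gained Rnd3 site 7 lay 793 bp from the lost Rnd3 site 6, both in the first part of the gene. Mmadhc, on one side, went from 1 to 2 peaks, and Tas2r134, on the other, from 3 to 0.

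Many lost sites of these genes had a differentiated RUNX2 peak nearby. Their median distance to the nearest differentiated RUNX2 peak was 10.8 kb, and it was 55.1 kb over all lost sites. A kept or gained peak lay within 10 kb of 48.1% of them, against 20.1% of lost sites elsewhere, a difference of 28.0 points (15.0 to 41.2). In the other genes with 9 or more peaks the share was 51.9%, and the difference was -3.79 points (-18.2 to 10.9). Within 1 kb, 17.3% of the lost sites of the 6 genes had a differentiated peak centre, against 5.67% of lost sites elsewhere. That difference was 11.6 points (3.69 to 24.1), and it was not computed for the other genes with 9 or more peaks. The medians ran from 1.49 kb at Bahcc1 and 3.30 kb at Gse1 to 33.1 kb at Rnd3 and 61.0 kb at Wwox.

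The counts also depend on how a peak is given to a gene. When genes of every biotype competed for peaks, the 6 genes held 39 peaks before and 12 after, and when only the 5′-most TSS counted they held 36 and 10. All 6 still fell under each of the 6 settings tried for assignment and merging, but the smallest fall was 1 peak at Wwox and Rgs3 and 2 at Bach2 and Rnd3, against 5 at Bahcc1 and Gse1.

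The marks at the lost sites were compared next. All 52 lost sites were inside an H4K5Ac region in both states (exact 95% interval 93.2% to 100%), beside 96.6% before and 92.3% after over all lost sites. H3K4me1 covered 51 of the 52 in both states, beside 95.7% and 97.7% over all lost sites, and the exception was Rnd3 site 6, 2.19 kb from a TSS and inside H3K4me3 in both states. The 19 kept sites were likewise all inside both marks in both states. With shares this near 100% in every class, overlap with these marks could not show a difference between classes or states. Within the lists the regions under single lost sites shifted in rank in both directions, and the examples here were picked with their values in view. At Bach2 site 3 the H4K5Ac region went from the 56.7th to the 8.69th percentile of the authors' scores. The H3K4me1 region there went from the 74.6th to the 40.6th. At Rgs3 site 1 the H4K5Ac region went from the 83.7th to the 96.1st percentile and the H3K4me1 region from the 69.3rd to the 95.7th. Counted once per lost site, over the 52 sites, the median H4K5Ac percentile was 95 before and 93.6 after. Counted once per region it was 87.1 before (24 regions) and 88.2 after (28 regions), so the small shift had no steady direction.

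**Figure D3:**
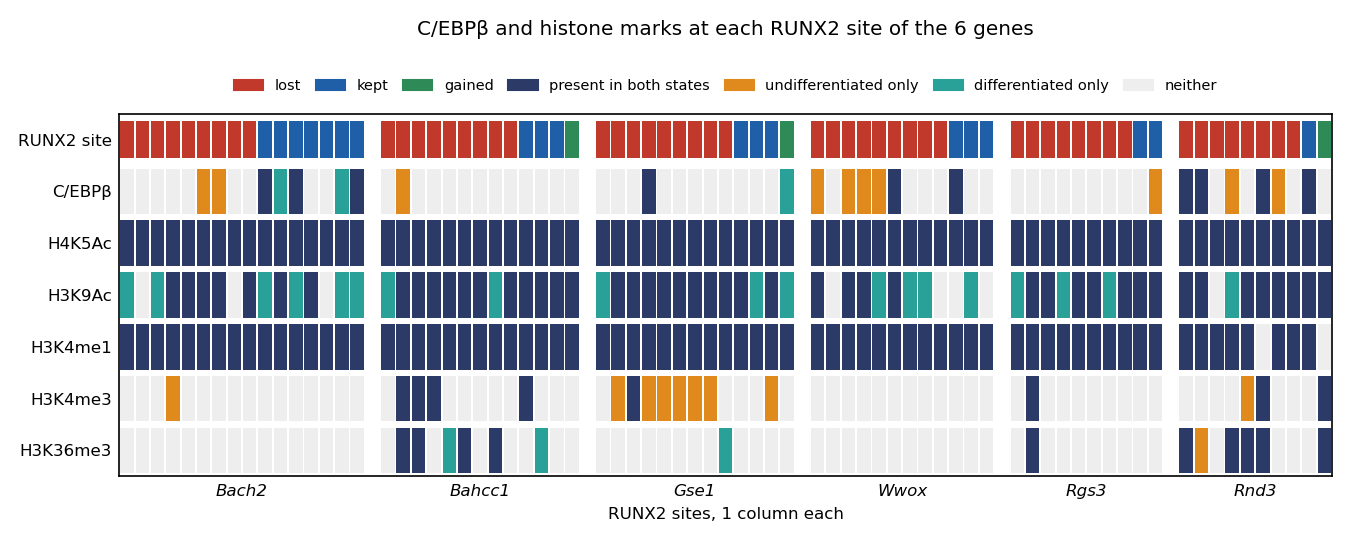
Each column is 1 RUNX2 site of the 6 genes, sorted by gene and class (top row), and each lower row shows whether C/EBPβ or a mark overlapped it in both states, in 1 or in neither. The H4K5Ac row is filled in both states throughout, H3K9Ac changes only towards presence, and the loss of H3K4me3 gathers at Gse1.

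H3K9Ac spread over the lost sites. It covered 35 of the 52 before (67.3%, 52.9% to 79.7%) and 47 after (90.4%, 79.0% to 96.8%), beside 54.7% and 73.6% over all lost sites. Of the 17 outside H3K9Ac before, 12 were inside after (43% over all lost sites), and none of the 35 inside had left (1.09% over all lost sites). The newly covered sites were spread over all 6 genes, with 3 each at Wwox and Rgs3, 2 each at Bach2 and Bahcc1, and 1 each at Gse1 and Rnd3. Kept sites went from 10 of 19 (52.6%) to 16 (84.2%), beside 55.4% and 83.0% of kept sites elsewhere. The share after was above that of lost sites elsewhere by 16.9 points (5.89 to 22.5), but the difference from the other genes with 9 or more peaks was 3.66 points (-7.94 to 11.0).

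The mark lists themselves changed in length, which touches each of these shares. H3K9Ac regions covered 52.6 Mb before and 86.5 Mb after, a ratio of 1.65, while the ratio was 0.779 for H4K5Ac, 0.824 for H3K4me3, 1.01 for H3K4me1 and 0.994 for H3K36me3. Within 100 kb of the gene bodies, H3K9Ac cover was higher after at all 6 genes, from 1.35 times at Bahcc1 (54.9 to 74.4 kb) and 1.41 times at Gse1 (32.6 to 46.0 kb) to 3.36 times at Wwox (10.2 to 34.4 kb). H4K5Ac cover was lower at Bach2 (258 to 170 kb, ratio 0.657) and Wwox (336 to 234 kb, ratio 0.696), and near its former length at Bahcc1 (119 to 122 kb) and Gse1 (109 to 109 kb). At Rnd3 a single H4K5Ac region of 223 kb held all 8 lost sites before, and 3 regions of 28.6 to 40.5 kb held them after. How far depth or enrichment moves these lengths was not tested.

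H3K4me3 went the other way at Gse1. Of the 52 lost sites 14 were inside H3K4me3 before (26.9%, beside 26.9% over all lost sites) and 6 after (11.5%, beside 26.6%). Of the 14, 8 were outside afterwards, a share of 57.1% against 16.3% over all lost sites, and the difference from lost sites elsewhere was 41.1 points (16.5 to 62.6). Gse1 held 6 of the 8, Bach2 1 and Rnd3 1, so without Gse1 the count was 2 of 7. In the other genes with 9 or more peaks the share that left was 52.1%, and the difference was 5.06 points (-22.9 to 30.6). Those 6 sites shared only 2 H3K4me3 regions, so they are not separate events.

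Region by region, the internal H3K4me3 region of Gse1, 10.8 kb long over 3 of its TSSs and 6 RUNX2 sites, was in the undifferentiated list only. It ranked at the 21.7th percentile of the authors' scores in that list. The region at the first TSS of Gse1 shortened from 11.7 to 4.37 kb and went from the 59.7th to the 85.1st percentile. At Bach2 the promoter region of 2.38 kb, at the 6.55th percentile and so among the weakest of its list, had no differentiated counterpart. Of 7619 genes with H3K4me3 at a TSS before, 4.58% had none after, and Bach2 was the only one of the 6 among them. The region at the internal TSSs of Rgs3 shortened from 10.5 to 1.99 kb and went from the 30.5th to the 43.0th percentile, and that at Rnd3 from 12.6 to 5.59 kb while staying at the 99.9th percentile in both lists. Bahcc1 went from 15.1 to 11.7 kb, at the 98.2nd percentile in both lists, and Wwox had no H3K4me3 region at a TSS in either state. Shorter regions were general, as 6920 H3K4me3 regions covered 26.4 Mb before and 8196 covered 21.8 Mb after.

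**Figure D4:**
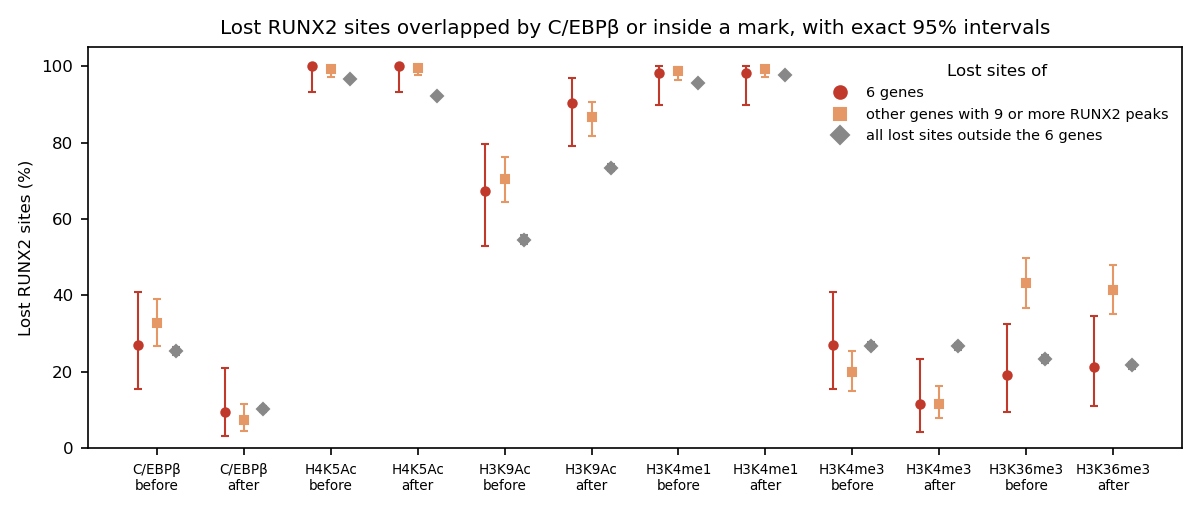
Percentage of lost RUNX2 sites overlapped by C/EBPβ or inside each mark, before and after, for the 6 genes (52 sites), the other genes with 9 or more undifferentiated RUNX2 peaks (241 sites) and all lost sites outside the 6 genes (8006 sites); bars are exact 95% intervals for counting error. For H3K36me3 the 6 genes lie below the other genes with 9 or more peaks (19.2% against 43.2% before); for the other rows their intervals overlap.

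H3K36me3 lay over few of the sites. It covered 10 of the 52 lost sites before (19.2%, beside 23.3% over all lost sites) and 11 after (21.2%, beside 21.7%), and these were at Bahcc1, Rnd3, Rgs3 and, after differentiation, Gse1. Of the 19 kept sites none was inside before, which allows a share of up to 17.6% by the exact interval, and 1 was inside after. Kept sites elsewhere were inside in 25.3% of cases before and 24.7% after, and the difference of the 6 genes from them was -25.3 points before (-26.6 to -8.44). Lost minus kept at the 6 genes was 19.2 points before (0.416 to 31.9). The share of lost sites before was lower than in the other genes with 9 or more peaks by 23.9 points, as the difference of -23.9 points had an interval of -34.5 to -9.86. It was the only one of the marks whose interval for that comparison left out 0, in either state. These intervals count sites, and the sites inside were unevenly spread over the genes. None of the 9 lost and 7 kept sites of Bach2 was inside in either state. The same held for the 9 lost and 3 kept sites of Wwox. Rnd3 held 5 of the 10 lost sites inside before, and those shared 2 regions.

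H3K36me3 over the gene bodies was compared as the covered share. The covered share was 2.75% before and 9.19% after at Bach2, 83.4% and 89.3% at Bahcc1, and 26.4% and 32.5% at Gse1. It was 2.17% and 3.07% at Wwox, 19.0% and 19.2% at Rgs3, and 100% in both states at Rnd3. No gene of the 6 lost cover of its body, 5 were higher after, and none moved by 10 points. Over all 22239 genes 4.71% were lower and 5.13% were higher by at least 10 points, and 45.5% of the 11480 genes with any cover were higher after. The median change was 3.41 points over the 6 genes and 0 over all genes. With only the regions above the median score of each list, cover was 30.8 points higher after at Bahcc1 and 14.6 points higher at Gse1. Bach2 did not change. Both rises depend on that cut. At Bahcc1 the rise came from an 18.1 kb region that just passed it after, at the 51.5th percentile. At Gse1 a 36.6 kb region that passed after took in a stretch that a separate, lower-scoring region covered before. Within 100 kb of the gene bodies, H3K36me3 was lower after at Rnd3 (48.9 to 30.7 kb) and Bahcc1 (115 to 112 kb). It was higher there at Bach2, Gse1, Wwox and Rgs3.

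**Figure D5:**
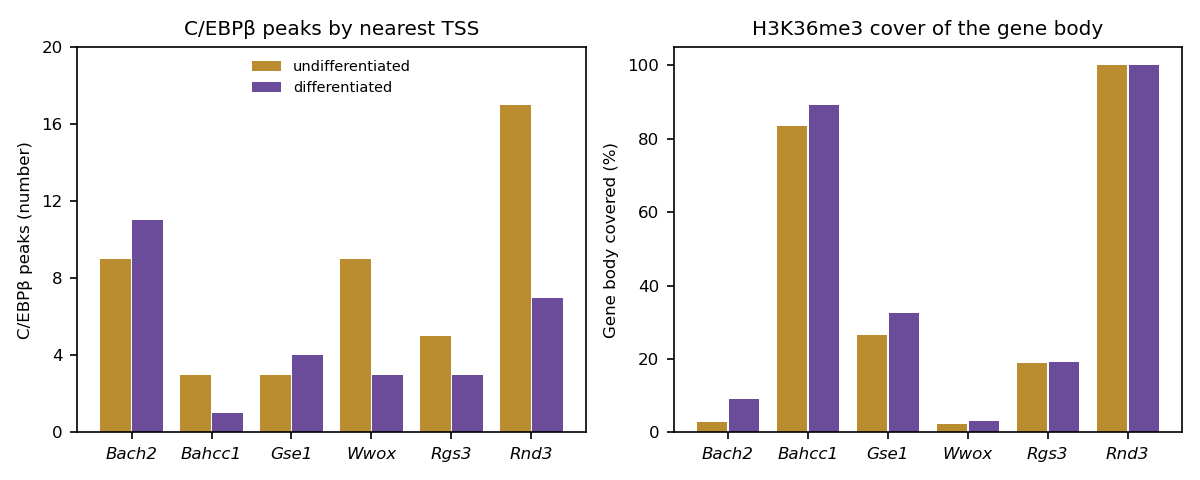
C/EBPβ peaks by nearest TSS (left, number) and the percentage of the gene body covered by H3K36me3 (right) at each of the 6 genes, in undifferentiated and differentiated cells, 1 list a state and so no error bars. C/EBPβ falls most at Rnd3, from 17 to 7 peaks, and H3K36me3 cover is low at Bach2 and Wwox and complete at Rnd3.

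C/EBPβ did not follow RUNX2 at every gene. Its peaks by nearest TSS went from 17 to 7 at Rnd3, from 9 to 3 at Wwox, from 5 to 3 at Rgs3 and from 3 to 1 at Bahcc1. They went from 9 to 11 at Bach2 and from 3 to 4 at Gse1. Fewer peaks were thus found at 4 of the 6, beside 58.1% of all genes with a C/EBPβ peak. The share was 93.9% of the 49 genes with 9 or more RUNX2 peaks, a set that includes the 6. In all 46 peaks became 29, with 24 lost, 22 kept and 7 gained, and the lost share was 52.2% (36.9% to 67.1%), beside 56.9% over all C/EBPβ peaks. At Gse1 none of the 3 C/EBPβ peaks was lost, while 9 of its 12 RUNX2 peaks were.

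At the RUNX2 sites themselves, C/EBPβ overlapped 14 of the 52 lost sites before (26.9%, beside 25.5% over all lost sites) and 5 after (9.62%, beside 10.3%). Of the 14, 9 lost C/EBPβ as well (64.3%, beside 65.6%), and none of the other 38 gained it (2.02% over all lost sites). Those 14 sites were 5 at Wwox, 5 at Rnd3, 2 at Bach2 and 1 each at Bahcc1 and Gse1. At Wwox 4 of the 5 lost both factors, among them the promoter site, whereas at Rnd3 3 of the 5 kept C/EBPβ after RUNX2 was gone.

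C/EBPβ overlapped 6 of the 19 kept sites before (31.6%) and 7 after (36.8%), where kept sites elsewhere went from 41.0% to 22.9%. Lost minus kept was -4.66 points before (-29.3 to 16.3) and -27.2 points after (-50.0 to -6.40). Elsewhere the difference after was -12.6 points (-14.0 to -11.3). Of the 7, 5 were at Bach2, where sites 7 and 15 had C/EBPβ in the differentiated list only. Without Bach2, C/EBPβ overlapped 2 of 12 kept sites (16.7%) and 5 of 43 lost sites (11.6%) after, so most of the difference came from Bach2. Where the overlap had to reach 50% of the peak width, C/EBPβ overlapped 15.4% of lost sites before, and where genes of every biotype competed for peaks, 11.1% of the 9 kept sites held it in each state.

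Lost and kept sites differed in motif content. TGTGGT or TGCGGT, searched on both strands, was in 26 of the 52 lost sites (50.0%) and in 16 of the 19 kept sites (84.2%). Lost minus kept was -34.2 points (-50.9 to -8.79), and elsewhere it was -15.3 points (-17.0 to -13.6), with 56.1% of lost and 71.4% of kept sites. Windows of the same length 1 kb to each side held a match in 19.2% of cases for lost and 18.4% for kept sites. Bahcc1 showed the widest gap, with 2 of 9 lost and 3 of 3 kept sites, and Bach2 the narrowest, with 7 of 9 lost and 6 of 7 kept.

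The motifs were also counted one by one. Matches to TGTGGT were in 25 lost (48.1%) and 11 kept sites (57.9%), a difference of -9.82 points (-32.8 to 15.5). TGCGGT was in 1 lost site, Gse1 site 8, and in 6 kept sites, a difference of -29.7 points (-52.1 to -11.5), and elsewhere it was in 11.5% of lost and 17.6% of kept sites. The 6 kept sites were at Bach2, Bahcc1, Gse1, Wwox and Rgs3, the last with 2. The C/EBP motif TTGCNNAA was in 4 lost and 6 kept sites, a difference of -23.9 points (-46.8 to -4.58), with 8.34% and 9.75% elsewhere. TGANTCA, which AP-1 and BACH factors can bind, was in 7 lost and 5 kept sites, a difference of -12.9 points (-36.3 to 5.86), and all 5 kept ones were at Bach2. Such matches are descriptions of the sequence and do not show which factor bound.

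Relatives of Bach2, Gse1, Bahcc1, Rgs3 and Wwox were counted in 5 lists of related genes. Of 50 other members 27 (54.0%) had an undifferentiated RUNX2 peak, beside 27.3% of all genes, none had more than 6, and 22 of the 27 had fewer after (81.5%, beside 72.6% of all genes with a peak), 2 had more and 3 were equal. Among the BACH and CNC factors with their small MAF partners, 5 of 8 other members had a peak before and 2 after, with Nfe2 going from 1 to 0 and Nfe2l1, a stress-response factor, from 2 to 0. For the CoREST complex that GSE1 joins, 7 of 11 had a peak before and 3 after, and the scaffolds Rcor1 and Rcor2 kept 1 each. Of the BAH-domain genes 6 of 11 had a peak before and 3 after, with Tnrc18, a relative of Bahcc1, going from 6 to 3 and Rere from 2 to 4.

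Of the signalling genes, 2 of 9 other R4 regulators of G protein signalling, Rgs4 and Rgs8, had a peak before and none had one after. Of 11 other WW-domain genes 7 had a peak before and 6 after, with Wwc1 and Wwc2 each going from 2 to 1 and Wwp2 from 4 to 5.

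As a check of the cell type, H3K4me3 lay over a TSS of 5 of 8 osteoblast marker genes in each state. Runx2, Col1a1, Col1a2 and Sparc had it in both, Sp7 before only and Spp1 after only, while Alpl and Ibsp had it in neither. None of the 6 B cell, 6 adipocyte or 6 muscle markers had it in either state, and Sox9 alone of 6 chondrocyte markers had it in both.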

How the data were processed

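RUNX2, C/EBPβ, H4K5Ac, H3K9Ac, H3K4me1, H3K4me3 and H3K36me3 were profiled by chromatin immunoprecipitation and sequencing in MC3T3-E1 cells, with 1 deposited peak list for each antibody and state (14 lists from 16 samples, 2 of them inputs). The submitters' processing notes name Bowtie, HOMER and the build mm9. Their versions, roles and thresholds were not given in the sources used here. Each list merges biological replicates that the series' design text says were examined separately, and every peak name records at least 2 merged peaks, per the files. The deposited score, the authors' own value, was 0 for all factor peaks and was used only to rank mark regions within a list. Read depth is unknown, because peak lists carry no counts. Peaks of both factors were 201 bp wide, except for 1 clipped at a chromosome start, and mark regions were 1001 bp or wider.

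Peaks were compared with the mm9 assembly NCBIM37 and GENCODE vM1 (positions 1-based) in Python 3.11.15 with pandas 2.3.3, numpy 2.4.6 and scipy 1.17.1. The gene set was the protein-coding genes and Cebpd (22239 genes, 70065 TSSs), except where genes of every biotype competed. Each peak was assigned by nearest TSS, up to 100 kb away, and 10863 undifferentiated and 5266 differentiated RUNX2 peaks had one. Overlap was at least 1 bp. H3K36me3 cover is the percentage of the annotated gene body inside a region. Shares have exact Clopper-Pearson 95% intervals and differences have Newcombe intervals. Overlap, assignment and motif steps were tested on simulated data. The 6 genes, the gene lists and the measures were chosen with earlier results of these data known. Genes outside the 6 were named by rule: those that meet the member rule, the first 5 by name with a net fall of 6, the 2 nearest to each gene in peak numbers, flanking genes, and list members in list order. Rere and Wwp2, and members named for equal counts, were picked with their values in view. The comparison with other genes holding 9 or more RUNX2 peaks and the C/EBPβ counts without Bach2 were also chosen after seeing the data. Alternatives covered distance, assignment, overlap, merging and score. The gene list made for Rnd3 is not reported here.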

Additional observations from a re-analysis of the deposited data

How the results depend on the processing

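Of 201 recomputed summary values under 18 settings, 175 moved by less than their counting error or 1.5 times and 26 moved further. A change of direction was not scored for these. Counts and shares have no direction, and the median H3K36me3 change was below 10 points. Of 54 values of single genes 20 moved further. Settings that could not change a value were left out. With a distance of 20 kb the 6 genes held 33 undifferentiated and 9 differentiated RUNX2 peaks and 25 lost sites. With the 5′-most TSS alone these were 36, 10 and 29, and with genes of every biotype 39, 12 and 30. With the gene body plus 10 kb there were 14 differentiated peaks. C/EBPβ overlapped 15.4% of lost sites before when it had to cover 50% of the peak, and 11.1% of kept sites in each state with genes of every biotype. H3K9Ac covered 84.0% of lost sites before and 100% after within 20 kb, 97.4% after within 50 kb, and 42.3% before and 69.2% after with the higher-scoring regions. H3K4me1 covered 100% in both states once peaks closer than 1 kb were merged. H3K4me3 before covered 56.0% within 20 kb, 41.4% with the 5′-most TSS and 13.5% with the higher-scoring regions, and after 24.0% within 20 kb. H3K36me3 covered 9.62% before with the higher-scoring regions and 36% after within 20 kb. For these the sites or regions counted differ by construction. Motif shares were not recomputed after merging. No paired analysis was possible because each antibody and state has 1 merged list without replicate numbers. List length may reflect depth or enrichment, which was not tested.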
